A study of Mus musculus with 6 samples.

Results

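The 6 arrays of this series, each hybridised with RNA from skin cells sorted for CD34 and α6-integrin, fell on opposite sides of a wide gap in the transcript of the sort marker itself. The Cd34 feature read 13.07 on WT-3, 12.42 on TG-3 and 11.57 on TG-1 on the log2 scale, and 9.89 on WT-2, 9.78 on WT-1 and 9.65 on TG-2. Arrays above a log2 value of 11 are called the Cd34-high side (3 of 6 arrays) and the others the Cd34-low side (3 of 6 arrays). The sides were chosen on this measured value, with TG-1 the nearest above the threshold and WT-2 the nearest below it. They are not groups of the study, so every comparison between them is a description without a test, and Cd34 supports none of it.

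The study had 3 arrays from wild-type mice (WT) and 3 from K14-sPLA2-IIA transgenic mice (TG), all at postnatal day 49, with no treatment named. The transgene name denotes secreted phospholipase A2 group IIA under a keratin 14 promoter, which drives expression in basal cells of epidermis and follicle. Strain, sex, the number of mice behind an array and any pooling of mice are not given in the labels. The low side held WT-1, WT-2 and TG-2, and the high side WT-3, TG-1 and TG-3, so both genotypes stood on both sides. The targeted gene matched the labels on all arrays, since Pla2g2a read 12.61, 12.57 and 12.39 on TG-1 to TG-3 and 6.77, 5.75 and 5.90 on WT-1 to WT-3. Array medians lay between 5.90 and 5.99, and values ran from 2.85 to 14.42.

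CD34 is a surface sialomucin that marks the bulge of the mouse hair follicle, where slow-cycling stem cells rest between growth phases. These cells sit on the basement membrane through integrins such as α6β4, carry transcription factors such as SOX9, LHX2, NFATC1 and TCF7L1, and secrete inhibitors of Wnt signalling and ligands of the BMP and TGF-beta families. The neighbouring interfollicular epidermis shares α6-integrin and keratin 14 in its basal layer and moves outward through keratin 1 and keratin 10 layers to the cornified envelope. Mouse epidermis also houses dendritic T cells and Langerhans cells. In RNA from a bulk sort, fewer cells of a type and less RNA per cell cannot be told apart.

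Over 22180 genes, 353 (1.59%) were at least 2-fold higher on the high side and 575 (2.59%) at least 2-fold lower, in each case with no overlap between the 3 arrays of either side. Such a gene is called apart below, and the shares of 1.59% and 2.59% are those to set beside each list count. The median difference over all genes, high minus low, was -0.035, so the scale as a whole hardly moved. At 4-fold or more, 51 genes were higher and 103 lower. Cd34 itself is 1 of the 353. The counts were 626 and 932 without TG-1, and 280 and 224 without both arrays numbered 3, the latter with TG-1 alone on the high side. With the replicate number as a block, they were 263 and 234. Within a number only WT-1 and TG-1 differ in side, and these arrays differ in genotype as well.

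WT-3 and TG-3 share the number 3, so what that number marks and the Cd34 side cannot be told apart except through TG-1. The first principal component, with 64.6% of the variance between arrays, placed WT-3 at 50.2 and TG-3 at 53.3, TG-1 at -2.8, and the low-side arrays between -34.3 and -32.7.

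The high side carried more RNA of bulge surface and secreted genes. Of 32 such genes measured, 19 were higher and 0 lower, with a median difference of 1.33 against -0.04 over all genes. Lgr5, encoding an R-spondin receptor of bulge and hair germ cells, read 10.72 on WT-3, 10.20 on TG-3 and 9.18 on TG-1, and 7.21, 7.45 and 7.04 on WT-1, WT-2 and TG-2. Its sides did not overlap, TG-1 was the lowest of the high arrays, and the difference of 2.80 corresponds to 6.97-fold. Grem1, which encodes a secreted BMP antagonist, read 11.21, 11.01 and 9.55 on WT-3, TG-3 and TG-1, and 8.07, 8.02 and 7.55 on WT-1, WT-2 and TG-2. It showed the same order, with a difference of 2.71.

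Ltbp2, of the latent TGF-beta binding protein family, was higher by 2.48 and the semaphorin gene Sema3e by 2.44. Dkk3, of the Dickkopf family, read between 10.53 and 11.68 on the high side and between 8.55 and 8.90 on the low side. Npnt, which encodes the integrin ligand nephronectin, Fst (follistatin) and Fgf18, whose product holds follicles in rest, were higher by 1.39, 1.36 and 1.30. Itgb6, an integrin subunit gene, read 7.25, 7.76 and 8.37 on WT-3, TG-3 and TG-1 and 6.63 at most on the low side. Some familiar bulge genes did not lie apart. Cd200, which encodes a surface glycoprotein, read 7.72 on TG-1, within the low-side range of 7.04 to 8.03, while WT-3 and TG-3 read 8.86 and 8.71. Postn (periostin) differed by 0.83 and Col17a1, encoding a hemidesmosome collagen, by 0.39.

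Among 30 transcription factor genes of the follicle stem cell compartment, 10 were higher and 1 lower, with a median difference of 0.52. Tcf7l1, encoding the TCF family repressor TCF3, read 9.44, 9.34 and 9.49 on WT-3, TG-3 and TG-1 and 7.83, 7.10 and 7.57 on WT-1, WT-2 and TG-2, a difference of 1.93. The 3 high arrays were close to one another, and TG-1 was as high as the rest. Sox9 read 12.05, 11.91 and 12.16 on the high arrays and 10.93, 10.65 and 10.92 on the low arrays, a difference of 1.21. Nfatc1, which keeps bulge cells quiescent, differed by 1.12. Lhx2 was 0.85 higher without overlap but under 2-fold.

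The Hedgehog effector Gli1 was higher by 1.90, the T-box gene Tbx1 by 1.60, and Id3 and Id2, encoding inhibitors of basic helix-loop-helix factors, by 1.81 and 1.56. The gene on the other side was Klf5, encoding a Krüppel-like factor of proliferating epithelium, which read 10.60, 10.53 and 11.63 on WT-3, TG-3 and TG-1 against 12.37 to 12.43 on the low side.

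Keratins differed from one another. Krt15, a bulge keratin, read at least 13.34 on the high side and between 13.21 and 13.35 on the low side, so the sides overlapped. Krt14, the basal keratin, was 0.29 lower on the high side, and Itga6, which encodes the α6-integrin of the sort, 0.30 lower, both without overlap. Trp63, the master regulator of stratified epithelium, differed by -0.10. Values near 14 lie at the top of the array's range, where differences can be compressed. Krt24 was 1.99 higher (13.04, 12.24 and 12.20 against 10.87, 10.45 and 10.19), and the companion layer keratin genes Krt75 and Krt6a were 1.72 and 1.32 higher. Cdkn1a, encoding the cell cycle inhibitor p21, was 1.59 lower. Of the 14 keratin and quiescence genes measured, 3 were higher and 1 lower, with a median of 0.02. Of 14 hair germ genes 4 were higher and 1 lower, with a median of 0.41. They were Lgr5, Gli1, the matrix gene Tnc and the chemokine receptor gene Cxcr4 (1.27), and on the lower side Bmp4. Lgr5, Gli1 and a few others stand in more than 1 list.

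**Figure D1:**
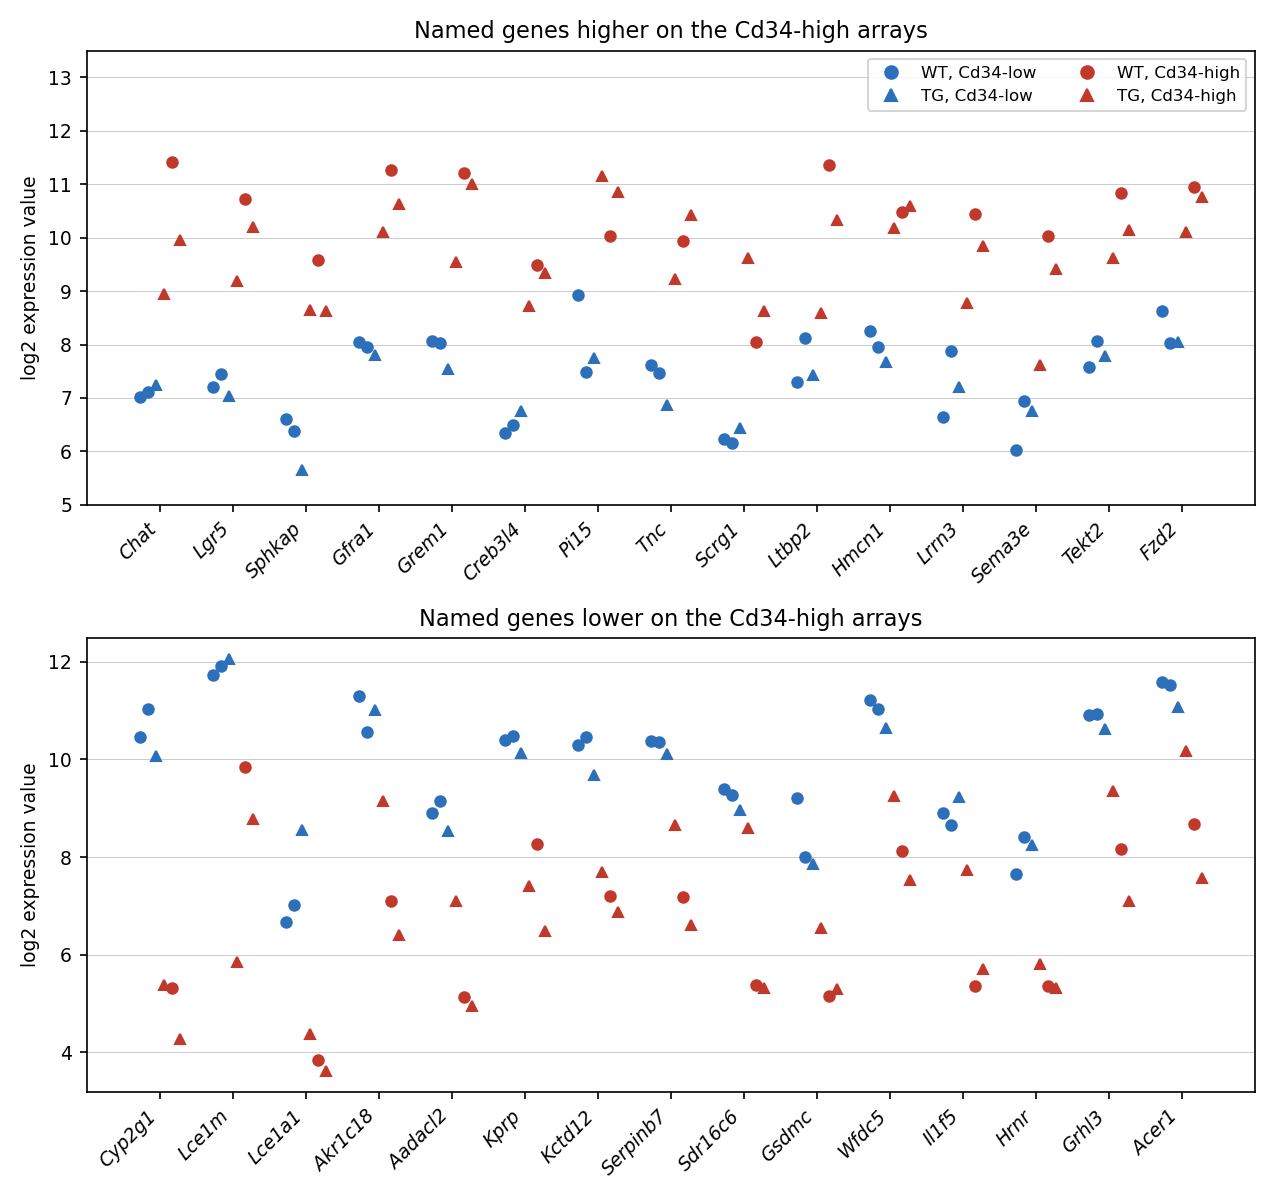
Log2 expression values on each of the 6 arrays (vertical axis) for the 15 named genes higher (top) and the 15 lower (bottom) on the Cd34-high side; circles are WT, triangles TG, red the high side and blue the low side. Red and blue do not overlap for any gene, by the rule that chose them; Cyp2g1 has the widest gap, at 5.53.

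A fixed rule named the 15 genes farthest apart in each direction among those also at least 2-fold different, in the same direction, within each genotype, a condition met by 237 genes on the higher side and 422 on the lower. The plot of named genes shows them array by array. Chat, which encodes choline acetyltransferase, headed the higher side. It read 11.41, 9.96 and 8.95 on WT-3, TG-3 and TG-1 and 7.01, 7.11 and 7.24 on WT-1, WT-2 and TG-2, a difference of 2.99. After Chat and Lgr5 came Sphkap, encoding an anchoring protein of protein kinase A, at 2.74, and Gfra1, encoding a receptor subunit for glial cell line-derived neurotrophic factor, at 2.73.

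Matrix genes were represented by Tnc (tenascin C) at 2.54 and Hmcn1 (hemicentin) at 2.45. Fzd2, a Wnt receptor gene, was at 2.37 and the CREB family gene Creb3l4 at 2.66. Pi15, which encodes a peptidase inhibitor, and Scrg1 had their highest values on TG-1, at 11.16 and 9.62, while Chat, Lgr5 and Ltbp2 had theirs on WT-3. The order of the high-side arrays therefore differed from gene to gene. Lrrn3 and the tektin gene Tekt2 completed the 15 with 2.45 and 2.39.

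On the lower side the cytochrome P450 gene Cyp2g1 had the largest difference of the 22180 genes. It read 10.46, 11.04 and 10.06 on WT-1, WT-2 and TG-2 and 5.31, 4.27 and 5.39 on WT-3, TG-3 and TG-1, which is 46.3-fold lower on the high side. TG-1 stood with the arrays numbered 3 here, although its profile as a whole lay between the sides. The late cornified envelope genes Lce1m and Lce1a1 were lower by 13.4-fold and 11.1-fold. Lce1m read 5.85 on TG-1, below 8.78 on TG-3 and 9.84 on WT-3, and 11.72 to 12.06 on the low side.

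Enzyme genes in this group were Akr1c18, a 20α-hydroxysteroid dehydrogenase gene, at -3.41, Aadacl2 at -3.13, Sdr16c6 at -2.78 and the alkaline ceramidase gene Acer1 at -2.59. Genes of the outer epidermis were Kprp at -2.96, the protease inhibitor gene Serpinb7 at -2.80, the hornerin gene Hrnr at -2.61 and Grhl3, encoding a transcription factor of barrier formation, at -2.61. Il1f5, encoding the interleukin 36 receptor antagonist, and Wfdc5 were both at -2.67. Kctd12 and the gasdermin gene Gsdmc were at -2.89 and -2.69. The Lce1, Akr1c, Gsdmc and Serpinb families hold near-identical copies, and how far probes tell these apart was not tested.

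Promoter sequences are shown for 3 of these genes, 1 from the higher and 2 from the lower side, as examples of regulatory sequence in genes that lay apart together. They are the 250 bases before the start site from RefSeq (GRCm38.p6), 5′ to 3′ on the plus strand, with matches to the searched motifs in capitals. Sema3e lies at chr5:14025026-14025275, Serpinb7 at chr1:107422439-107422688 and Hrnr at chr3:93319499-93319748.
Sema3e: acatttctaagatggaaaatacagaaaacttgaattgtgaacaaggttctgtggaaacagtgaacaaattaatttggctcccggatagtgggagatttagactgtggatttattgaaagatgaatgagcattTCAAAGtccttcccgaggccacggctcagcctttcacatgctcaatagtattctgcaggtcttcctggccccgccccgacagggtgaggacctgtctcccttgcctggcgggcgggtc
Serpinb7: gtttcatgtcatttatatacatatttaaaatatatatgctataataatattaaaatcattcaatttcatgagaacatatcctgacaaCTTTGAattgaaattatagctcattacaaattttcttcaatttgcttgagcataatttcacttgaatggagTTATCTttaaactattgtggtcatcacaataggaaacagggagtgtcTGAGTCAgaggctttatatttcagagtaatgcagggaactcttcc
Hrnr: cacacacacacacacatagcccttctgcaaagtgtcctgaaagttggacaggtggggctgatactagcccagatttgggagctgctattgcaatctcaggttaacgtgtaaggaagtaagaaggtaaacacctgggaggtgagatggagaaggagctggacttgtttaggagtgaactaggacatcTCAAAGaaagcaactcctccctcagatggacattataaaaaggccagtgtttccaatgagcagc

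The table gave promoters for 10 of the 15 higher and 11 of the 15 lower genes. In windows from 250 bases before to 50 after the start, on both strands, the TCF/LEF letters CTTTGA were found in 1 of the 10 higher (Sema3e) and 4 of the 11 lower (Serpinb7, Hrnr, Grhl3 and Acer1), against 16.2% of 27025 promoters. The AP-1 letters TGANTCA were in 0 of the 10 and 1 of the 11 (Serpinb7), against 7.93%. The SOX letters ACAATG were in 1 of each (Hmcn1 and Il1f5), against 12.8%. The GATA letters AGATAA were in 0 and 1 (Serpinb7), against 11.4%, and the LIM homeobox letters TAATTA in 0 and 1 (Aadacl2), against 5.31%. No motif overlapped another in the 3 sequences shown.

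Genes of the spinous, granular and cornified layers made up the broadest group on the lower side. Of 56 measured, 35 were lower and 1 higher, and 52 lay below 0, with a median of -1.65. Involucrin (Ivl), a cornified envelope scaffold, read 8.71, 8.31 and 10.80 on WT-3, TG-3 and TG-1 and 11.79, 11.66 and 11.80 on WT-1, WT-2 and TG-2, a difference of -2.47. All 3 high arrays were below the low arrays, with TG-1 the nearest to them. Flg2, of the filaggrin family, was lower by 5.94-fold and Lor (loricrin) by 3.36-fold. Krt10, the keratin of the spinous layer, read 13.26, 13.02 and 13.69 against 14.05, 14.12 and 14.10, a difference of -0.77 without overlap. Its partner Krt1 differed by -1.28.

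The exception was Tgm5, encoding a transglutaminase of the cornified envelope, which read 12.53, 12.18 and 11.54 on WT-3, TG-3 and TG-1 and 9.97, 10.18 and 9.75 on WT-1, WT-2 and TG-2. It was 2.12 higher on the high side. Sprr1a and Casp14, encoding a small proline-rich protein and a caspase of the cornified layer, separated WT-3 and TG-3 from the rest but not TG-1. Sprr1a read 7.18 and 7.76 on WT-3 and TG-3 and 10.88 on TG-1, within the low-side range of 10.57 to 11.47.

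Genes listed for the basal epidermis showed no common direction. Of 21 measured, 1 was higher and 3 lower, 10 lay above 0 and 11 below, and the median was -0.10. The metallothionein gene Mt4 (-2.15), Krtdap (-1.81) and Ly6d (-1.29) were lower, and the fibulin gene Fbln1 (1.85) was higher. Krtdap stands in the suprabasal list as well, so it is counted there too. The integrin gene Itgb1 differed by 0.73 with overlap.

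**Figure D2:**
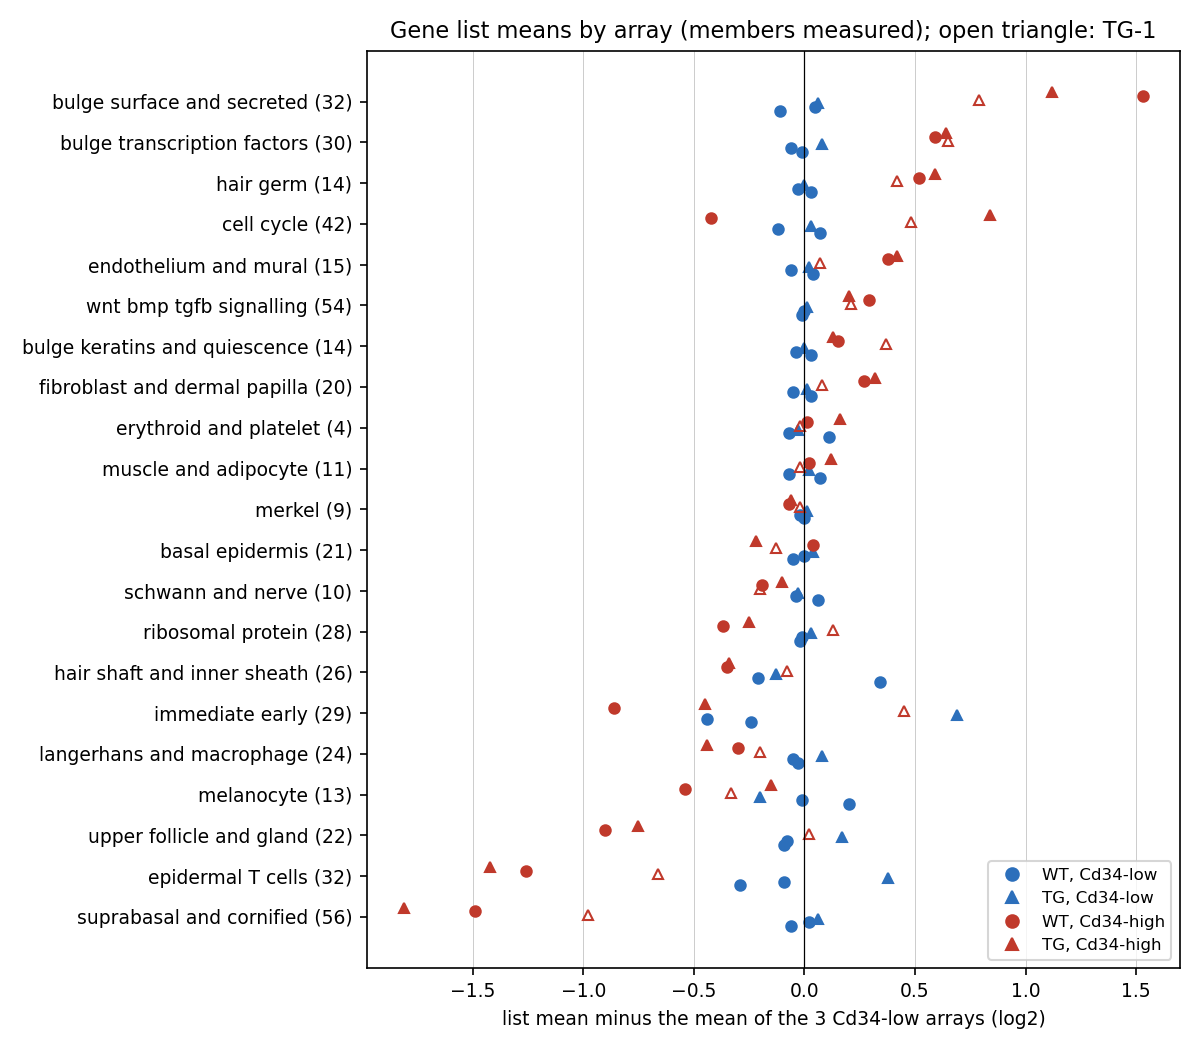
Mean log2 value of each gene list on each array minus the mean of the 3 Cd34-low arrays (horizontal axis), 1 row per list with the number of genes measured; circles are WT, triangles TG, red the high side, blue the low side, and the open triangle is TG-1. Bulge lists lie to the right and the suprabasal and T cell lists to the left on all 3 high arrays; TG-1 lies at 0.02 for the upper follicle and gland list, where the arrays numbered 3 average -0.82.

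Markers of T cells moved in the same direction as the suprabasal genes. Of 32 measured, 15 were lower and 0 higher on the high side, 30 lay below 0, and the median was -1.05. Cd7, encoding a T cell surface protein, read 8.93, 8.71 and 9.53 on WT-3, TG-3 and TG-1 and 10.99, 10.91 and 11.25 on WT-1, WT-2 and TG-2, a difference of -1.99. The T cell receptor complex genes Cd3g and Cd3e differed by -2.19 and -2.06 and Il2rb, encoding an interleukin 2 receptor chain, by -2.12. The mean of the list ran from 6.20 to 6.96 on the high side and was at least 7.33 on the low side. An array gives no true zero, so no marker can be called absent, and the part of T cells in the other differences was not tested.

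Langerhans cell and macrophage markers differed less, with 1 of 24 lower, against 2.59% of all genes, and 0 higher. Their median was -0.35, and the lower gene was Cd207 (langerin), at -1.03. The list mean ran from 6.74 to 6.98 on the high side and from 7.13 to 7.26 on the low side, without overlap. Of the 13 melanocyte, 10 Schwann and nerve, 9 Merkel, 4 red cell and platelet, and 11 muscle and fat cell markers, 0 were apart in either direction. Pmel, which melanocytes use to build pigment organelles, read 9.28 and 8.89 on WT-1 and WT-2 and 6.80 on WT-3, while TG-1, TG-2 and TG-3 read 7.55, 8.19 and 8.35.

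On the higher side 3 of 20 fibroblast and papilla markers were apart, against 1.59% of all genes. They were Fbln2 at 1.62, Col6a1 at 1.14 and Col6a2 at 1.11. Col1a1, the main dermal collagen, was at 0.91. The list median was 0.22, and 8 of the 20 lay below 0, among them Rspo3, a Wnt agonist gene, at -0.75, the vimentin gene Vim at -0.68 and the decorin gene Dcn at -0.35. Means of that list were 7.01 to 7.25 on the high side and 6.88 to 6.96 on the low side. Of the 15 vessel and mural markers 1 was higher, against 1.59% of all genes. It was the proteoglycan gene Cspg4 at 1.98. The part of these cell types in the bulge gene differences was not tested.

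Sebaceous and upper follicle genes parted the arrays in another way. Of 22 measured, 3 were lower and 1 higher (Fst, also a bulge gene), with a median of -0.41. The lower genes were Cidea, a lipid droplet gene, at -2.29, Pparg, the nuclear receptor of fat and sebaceous cells, at -1.75, and the desaturase gene Scd1 at -1.05. In several others TG-1 stayed with the low arrays. Elovl3, a fatty acid elongase gene, read 4.57 and 4.61 on WT-3 and TG-3, 8.10 on TG-1, and 7.61 to 7.98 on the low side. Krt79, a keratin of the follicle canal, read 10.16 and 10.67, 12.77, and 12.54 to 13.04 in the same order.

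TG-1 was therefore set beside the arrays numbered 3 list by list, a comparison chosen after the values were seen. Relative to the mean of the low arrays, its bulge transcription factor mean was 0.64 higher, against 0.61 for the mean of WT-3 and TG-3. Its bulge surface and secreted mean was 0.79 against 1.32, its suprabasal mean -0.98 against -1.65 and its T cell mean -0.66 against -1.34. The upper follicle and gland mean was 0.02 against -0.82. In 152 genes (0.685%) the mean of WT-3 and TG-3 was at least 2-fold above the low mean. In these, WT-3 and TG-3 each lay above all low arrays and TG-1 did not. In 173 genes (0.780%) the reverse held below. Aspn (asporin), a bulge matrix gene, read 11.25 and 10.33 on WT-3 and TG-3 but 8.33 on TG-1, within the low-side range of 7.18 to 8.63.

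**Figure D3:**
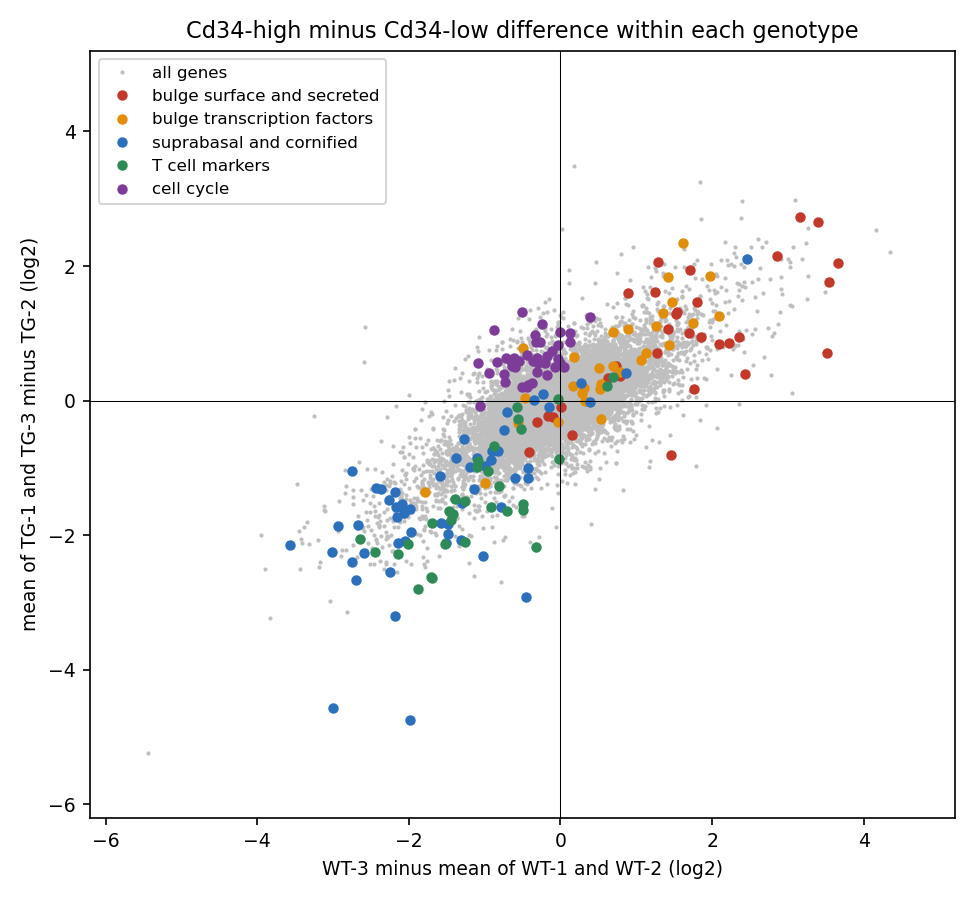
Each point is 1 of 22180 genes, with the high minus low difference within WT (horizontal, log2) and within TG (vertical, log2), from separate arrays; colours mark 5 gene lists and grey all genes. Bulge genes lie mostly to the upper right and suprabasal and T cell genes to the lower left, while cell cycle genes lie mostly above 0 in TG and mostly below 0 in WT.

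Because both sides held both genotypes, the difference could be taken within WT (WT-3 minus the mean of WT-1 and WT-2) and within TG (the mean of TG-1 and TG-3 minus TG-2), which use separate arrays. Across the 22180 genes these differences correlated with Pearson's r = 0.72 and Spearman's rho = 0.62. Genes are not independent replicates, and the sides were chosen on Cd34 in both genotypes, so this is a description. Of 741 genes at least 2-fold higher within WT, 34.1% were so within TG, and of 365 such genes within TG, 69.3% were so within WT. Of 974 genes at least 2-fold lower within WT, 46.9% were so within TG, and of 616 within TG, 74.2% were so within WT. Opposite 2-fold differences occurred in 1 gene. The median of the bulge surface list was 1.53 within WT and 0.90 within TG, and that of the suprabasal list -1.50 and -1.53.

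A fit with genotype as a second term gave 379 genes higher and 623 lower, of which 338 and 564 were among those apart without it. Lgr5 was at 3.02 in that fit, Krt10 at -0.78 and Cd7 at -2.07. Pla2g2a, whose side means differ by 1.94 with TG-1 and TG-3 on the high side, was at -0.21 with genotype in the fit.

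Signalling genes lay apart in both directions. Of 54 genes of the Wnt, BMP and TGF-beta pathways, 15 were higher and 6 lower, with a median of 0.07. Among Wnt ligands, Wnt3 read 7.80, 7.27 and 9.11 on WT-3, TG-3 and TG-1 and 10.34, 10.37 and 9.97 on WT-1, WT-2 and TG-2, a difference of -2.17, and Wnt16 was at -2.05. Among receptors, Fzd2, Fzd3 and Fzd7 were higher by 2.37, 1.54 and 1.03, and Fzd10 was at -1.88. The secreted Wnt inhibitors Sfrp1 and Wif1 were apart as well. Sfrp1 read 10.27, 10.48 and 9.94 on WT-3, TG-3 and TG-1 and 8.71, 8.43 and 8.27 on WT-1, WT-2 and TG-2, a difference of 1.76. Nkd2 and Apcdd1, which also restrain Wnt signalling, were at -1.73 and -1.13, and the pathway target Axin2 was at -0.53.

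BMP ligands went in opposite directions. Bmp6 was 1.52 higher, and Bmp4 read 7.46, 7.03 and 8.35 on WT-3, TG-3 and TG-1 and 9.21, 9.63 and 9.26 on WT-1, WT-2 and TG-2, a difference of -1.75. The BMP targets Id3 and Id2 were higher by 1.81 and 1.56, while Id1 differed by 0.32. In the TGF-beta branch the ligands Tgfb2 and Tgfb3 were higher by 1.52 and 1.47, the receptor Tgfbr1 by 1.17, the latency protein Ltbp1 by 1.34 and the inhibitory Smad7 by 1.06. Tgfb1 differed by 0.29 with overlap.

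**Figure D4:**
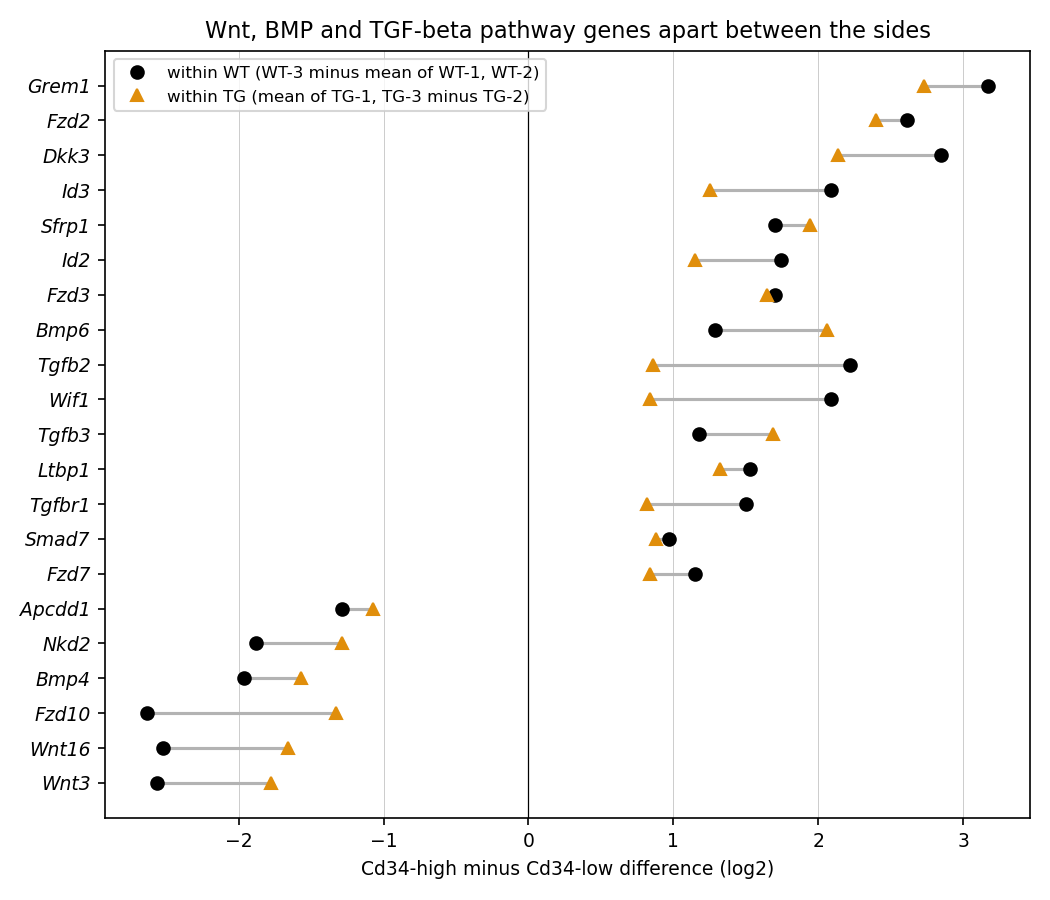
High minus low difference (horizontal axis, log2) within WT (circles) and within TG (triangles) for the 21 Wnt, BMP and TGF-beta pathway genes apart between the sides. All 21 have the same sign in both genotypes, as the lack of overlap that chose them requires. They run from Grem1 at 3.17 and 2.73 to Wnt3 at -2.56 and -1.78.

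Cell cycle genes, for S phase and mitosis, had 0 of 42 apart. Their list mean was 7.97 on WT-3 against 8.46 and 8.27 on WT-1 and WT-2, but 8.87 and 9.23 on TG-1 and TG-3 against 8.42 on TG-2. Of the 42, 5 had the same sign within both genotypes. Immediate early genes, a fast response of cells to stimuli such as tissue dissociation, had 0 of 29 apart and a median of -0.39. Within each genotype the high arrays were the lower ones, with a median of -0.58 within WT and -0.66 within TG, and -0.61 with genotype as a second term. Their mean was 9.03 on WT-3 and 9.44 on TG-3, 9.65 and 9.45 on WT-1 and WT-2, and 10.34 and 10.58 on TG-1 and TG-2, so the sides overlapped through the TG arrays. Dusp5, encoding a phosphatase of ERK, had the largest difference in that list, at -1.36 with overlap. Ribosomal protein genes had 0 of 28 apart and a median of -0.18. Hair shaft and inner root sheath genes had 3 of 26 lower, against 2.59% of all genes, and 0 higher, with a median of -0.18. The lower genes were Krtap8-1 at -1.35, Foxn1 at -1.29 and Gata3 at -1.22.

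The labelled contrast, TG against WT, could be tested, and the Cd34 side was entered in limma as a second term. The side came from the same arrays, and the p-values take it as given. Pla2g2a was the 1 gene of 22180 past the threshold (0.00451%), with TG higher by 6.45 ± 0.28 (SE, n = 3 against 3) and an adjusted p of 0.000899 in limma. It was also the 1 gene past it without the side, at 6.38 ± 0.27 and an adjusted p of 0.00255. With the side, its adjusted p in limma was 0.0678 without WT-3 and 0.0516 without TG-2. Without TG-3, 12 genes passed. Without the side, its adjusted p in limma was 0.065 when TG-1 was left out. Among the other genes the lowest adjusted p in limma with the side was 0.523.

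At an unadjusted p under 0.05, limma gave 668 genes higher (3.01%) and 400 lower in TG with the side in the fit, and 428 and 187 without it. In genes that differ between the sides, a smaller error once the side is fitted follows from the split itself. The standard error of the genotype difference was smaller with the side where genes followed Cd34. Its median was 0.22 with and 0.53 without the side for bulge surface genes, 0.27 and 0.70 for suprabasal genes, and 0.27 and 0.53 for T cell markers, against 0.17 and 0.18 over all genes. The TG minus WT difference of Lgr5 was -0.66 ± 0.30 (SE) with the side and 0.35 ± 1.14 without it, and that of Cd7 0.24 ± 0.23 and -0.45 ± 0.78. Sphkap was at -0.90 ± 0.14 with the side and 0.11 ± 1.11 without it. None of these passed the threshold (adjusted p in limma of 0.975, 0.984 and 0.679 with the side). The sign of Lgr5, Cd7 and Sphkap differed between the fits.

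Of 29 immediate early genes, 20 were higher in TG at an unadjusted p under 0.05 in limma and 0 lower with the side. Over all genes 3.01% were higher in that fit. Without the side, 12 were higher and 0 lower, against 1.93% higher over all genes. The median TG minus WT difference was 0.87 with and 0.76 without the side. Egr1, encoding a zinc finger factor, was at 1.57 ± 0.28 (SE) with and 1.13 ± 0.55 without it, and Hbegf, encoding an EGF receptor ligand, at 2.19 ± 0.42 and 1.82 ± 0.57. Neither passed the adjusted threshold (adjusted p = 0.975 in limma for both with the side). Of 32 T cell markers, 8 were higher and 0 lower at an unadjusted p under 0.05 in limma with the side, against 3.01% higher over all genes. Their median was 0.30. Without the side 0 were higher or lower, with a median of -0.08. On the high side the T cell list mean was 6.96 on TG-1 and 6.36 on WT-3, with TG-3 the lowest. On the low side TG-2 lay above WT-1 and WT-2, at 7.33 and 7.53. The higher TG values on the high side thus came from TG-1, which the fit places fully on that side. Its profile as a whole lay between the sides, so these counts cannot separate genotype from that position. Of 42 cell cycle genes, 14 were higher and 0 lower with the side, against 3.01% higher over all genes, with a median of 0.54. Without the side 17 were higher and 0 lower, against 1.93% higher over all genes, with a median of 0.58. Of 32 bulge surface and secreted genes, 0 were higher and 4 lower with the side, against 400 of 22180 genes lower. Their median was -0.23. Without the side 0 were higher and 1 lower, against 187 of 22180 genes lower, with a median of 0.20. TG-1 lay nearest the low side of the high arrays in this list as well, at 9.31 against 10.05 on WT-3 and 9.64 on TG-3.

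**Figure D5:**
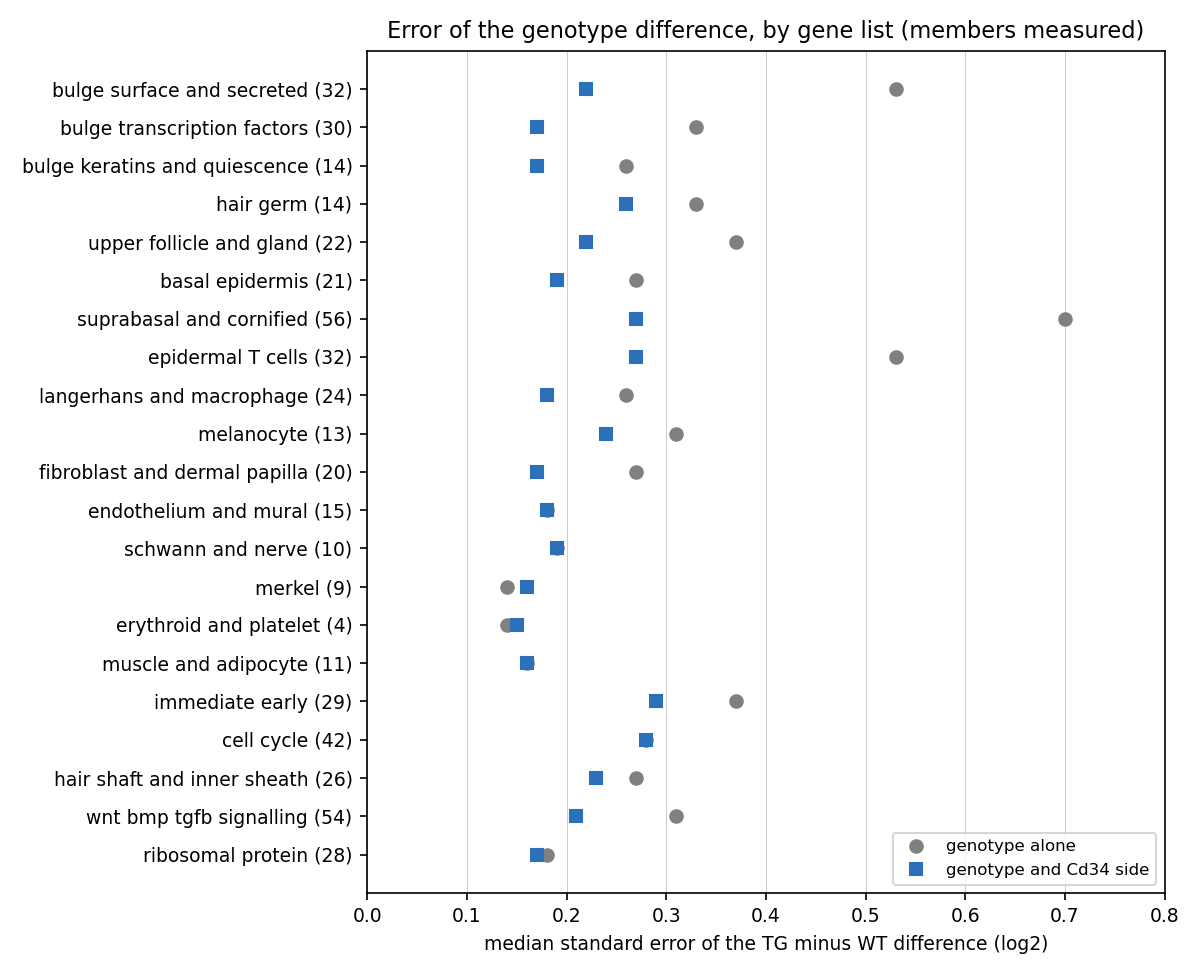
Median standard error of the TG minus WT difference (horizontal axis, log2) over the measured members of each gene list, from the fit with genotype alone (grey circles) and with the Cd34 side added (blue squares). The error is smaller with the side for the suprabasal (0.27 against 0.70) and bulge surface lists (0.22 against 0.53) and near equal for vessel markers (0.18 in both). The side was set on these arrays, so a smaller error in lists that differ by side follows from the split.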

How the data were processed

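RNA of the sorted cells was hybridised to 6 Mouse Gene 2.0 ST arrays (Affymetrix), 1 for each sample. The authors' deposited values are on a log2 scale, read from their range. No label or header states the log base, summarisation or scaling, so folds assume base 2. Tools in the submitters' processing notes are Transcriptome Analysis Console and version 1.4.1 of Expression Console. Of 41345 features, 23521 have 1 gene symbol, 1814 several and 16010 none in the platform annotation. Features with 1 symbol were used, the brightest by mean per gene (22180 genes, no filter on low values), and 1 feature was annotated to Cd34 alone. The RefSeq table of GRCm38.p6 held the Entrez ID of 23328 of these features and changed 0 symbols.

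Sides were set at a Cd34 value of 11 and compared by means and overlap, with no test. Genotype was tested across all genes with limma 3.58.1 in R 4.3.3 (lmFit, eBayes, two-sided, Benjamini-Hochberg, 0.05), with and without the side, after a check on simulated data. The simulation used independent noise around a fixed level for each side. It did not cover an array between the sides, such as TG-1, or arrays that deviate together. The members, lists and tests were chosen with earlier results of these data known. The 21 lists held 550 entries, of which 506 were measured; Krt5 and the T cell receptor delta and gamma constant genes are not analysed here. Named genes were the 15 farthest apart per direction that were also 2-fold different in the same direction within each genotype, without predicted genes, clones, small RNAs and multigene receptor families, plus up to 4 per list with the largest difference and a few stem cell markers. Other list members named were chosen after their values were seen.

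Across genes, deviations of same-numbered arrays from their genotype means correlated with r = 0.20, 0.67 and 0.74 for numbers 1, 2 and 3. The number was used as a block in an alternative. Arrays numbered 2 share a side, as do those numbered 3, so these values cannot be told apart from the Cd34 split. The numbers come from the sample titles, and no label says what they mark or that arrays are paired. WT-1 correlated more with TG-2 (0.50) than with TG-1, and WT-2 correlated with TG-1 at 0.17. WT-3, on the Cd34-high side with TG-1, correlated with it at -0.23. Separate mice are not stated for the samples of a genotype, so the spread behind p-values may be technical. Precision is limited by the number of arrays. Alternatives were scaling, features per gene, a filter on low values, the fold, weights and leaving out each array.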

Additional observations from a re-analysis of the deposited data

Results flagged for a closer look

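Cell cycle genes moved in opposite directions with the Cd34 side in the genotypes, which drew attention because every array of each genotype took part. The list mean of the high array was below both low arrays in WT (-0.40) and that of both high arrays above the low array in TG (0.62), so the TG difference exceeded the WT difference by 1.02. The basal epidermis list did the same at a smaller size, at 0.06 in WT and -0.22 in TG, a difference of -0.28. Neither difference between genotypes was tested. With 1 array on one side in each genotype, a single array sets each sign.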

How the results depend on the processing

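Of the counts of genes apart, those with genotype as a second term, quantile normalization, median centring, genes above the median level or the mean of a gene's features stayed within 1.5 times. Quantile normalization gave 387 higher and 533 lower (352 and 528 shared with the deposited values). A 1.5-fold limit gave 885 higher and 1287 lower, and a 4-fold limit 51 and 103. The replicate block gave 263 and 234. Leaving out 1 array gave 324 to 626 higher and 451 to 932 lower, with both highest values without TG-1; 341 of 353 and 570 of 575 were shared there. Without both arrays numbered 3, added after seeing the data, 280 were higher and 224 lower.

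In the genotype test the fit with the replicate block kept 1 gene past the threshold with and without the side, and so did the other settings on all 6 arrays. WT-1 and TG-1 differ in side as well as genotype. With the side and the block together, they therefore add nothing to the genotype difference. Few arrays are then left to estimate the spread, so that fit is a weak check. Leaving out 1 array gave 0 to 12 genes with the side and 0 to 1 without it, where Pla2g2a was lost without TG-1 (adjusted p = 0.065 in limma). Of the list medians, 139 of the alternative values moved by less than the spread between arrays of a side and 29 by more, and 0 medians of at least 1 in size changed sign. All 273 alternative values of single named genes stayed within that spread.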
